A study of Mus musculus with 3 samples.

Results

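Myogenic cells, the precursors of skeletal muscle, were picked out of the patellar tendon libraries by their own transcripts. A barcode, the tag that stands for one captured cell, was a member when at least 2 of the 5 genes Pax7, Myf5, Myod1, Cdh15 and Myog had at least 1 unique molecular identifier (UMI, the tag of one captured RNA molecule). Barcodes entered when they held 500 or more genes and 1000 or more UMIs, of which no more than 10% were mitochondrial. There were 126 members among 6588 such barcodes. The tendons came from mice labelled WT, aged 20 weeks in 2 libraries (replicates 1 and 2) and 2 weeks in 1 library. The tissue was digested with collagenase, blood-lineage and endothelial cells were removed by flow sorting, and the rest was profiled with a droplet assay that reads the 3' end of transcripts. The labels give no strain or sex and no number of animals per library, and the 20-week libraries may or may not come from different animals. They name no purification of myogenic cells, and they do not say whether muscle next to the tendon was trimmed off.

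Skeletal muscle is maintained by satellite cells, stem cells that lie between a muscle fibre and its basement membrane. Pax7 is the paired-box transcription factor that marks them. Myf5 and Myod1 are basic helix-loop-helix factors that commit a cell to the muscle lineage, and Cdh15 encodes M-cadherin, an adhesion molecule of the satellite cell and its fibre. Myog, myogenin, is the factor of the same helix-loop-helix family that drives committed myoblasts to leave the cell cycle, differentiate and fuse. Tendon itself is built by tenocytes, which do not normally express these genes, and joins muscle at the myotendinous junction.

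Factors of the Myod1 and Myog family bind the E-box, the motif CANNTG, often in the form CAGCTG. The promoters of 4 genes that the results turn on are shown because the members were split by Pax7 and Myog, Chrna1 differed between ages, and Des was the identity marker outside the rule. The sequences are RefSeq's on GRCm38.p6, 5′ to 3′ on the gene's strand, from 250 bases before to 50 bases after the start. They span chr1:134289754-134290053 (+) for Myog, chr2:73580289-73580588 (-) for Chrna1, chr1:75360042-75360341 (+) for Des and chr4:139832919-139833218 (-) for Pax7. Capitals mark CANNTG, which reads the same on both strands and includes every CAGCTG.
Myog: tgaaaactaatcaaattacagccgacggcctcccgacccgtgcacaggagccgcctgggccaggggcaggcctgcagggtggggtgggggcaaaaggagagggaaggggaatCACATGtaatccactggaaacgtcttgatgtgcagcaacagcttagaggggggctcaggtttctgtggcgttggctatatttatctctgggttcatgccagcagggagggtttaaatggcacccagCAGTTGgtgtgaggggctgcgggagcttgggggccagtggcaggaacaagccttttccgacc
Chrna1: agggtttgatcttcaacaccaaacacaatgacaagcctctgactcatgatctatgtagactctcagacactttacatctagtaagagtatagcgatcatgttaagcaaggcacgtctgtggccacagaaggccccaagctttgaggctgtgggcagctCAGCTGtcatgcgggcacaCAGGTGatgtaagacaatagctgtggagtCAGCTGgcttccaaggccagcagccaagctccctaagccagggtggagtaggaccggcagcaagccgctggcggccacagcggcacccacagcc
Des: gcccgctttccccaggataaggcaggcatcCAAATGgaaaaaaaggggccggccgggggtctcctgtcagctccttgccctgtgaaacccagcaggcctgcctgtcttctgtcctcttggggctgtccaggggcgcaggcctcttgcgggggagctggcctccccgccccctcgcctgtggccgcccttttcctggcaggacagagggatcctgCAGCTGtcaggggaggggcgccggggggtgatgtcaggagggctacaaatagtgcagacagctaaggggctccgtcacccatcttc
Pax7: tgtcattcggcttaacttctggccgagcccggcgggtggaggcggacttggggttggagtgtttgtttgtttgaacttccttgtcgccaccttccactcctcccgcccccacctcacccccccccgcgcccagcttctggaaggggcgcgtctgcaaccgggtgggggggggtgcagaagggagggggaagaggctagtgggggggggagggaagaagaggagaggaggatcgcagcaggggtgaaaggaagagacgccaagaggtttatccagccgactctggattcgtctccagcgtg
The Myog window held 2 matches and the Des window 2, of which 1 in Des was CAGCTG. The Chrna1 window held 3, of which 2 were CAGCTG, and the Pax7 window held 0. Of 32851 mouse promoters of the same length, 72.3% held CANNTG and 16.3% held CAGCTG. In the list of genes of muscle differentiation and fusion, 7 of the 22 promoters found (31.8%) held CAGCTG. In the list of genes of adult muscle fibres it was 11 of 19 (57.9%), and among the rule genes with a RefSeq promoter it was 0 of 4. These are descriptions of letters in a window and say nothing about binding.

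The libraries differed in depth and in how many members they gave. Replicate 1 at 20 weeks held 1 member among 609 barcodes, a share of 0.164% (exact 95% binomial interval 0.00416 to 0.911). Replicate 2 held 21 among 1015 (2.07%, 1.29 to 3.15), and the 2-week library held 104 among 4964 (2.10%, 1.71 to 2.53). These intervals cover counting error only. The 20-week libraries differed from each other more than replicate 2 differed from the 2-week library, so no difference in share is read between the ages. The median member held 2540, 4959 and 7149 UMIs in the 3 libraries in the same order, against 2850, 5142 and 6556 UMIs in the other barcodes, so shares of barcodes with a UMI are set by depth as well as by expression. The members' UMIs summed to 2540, 109798 and 784287. Of the barcode sequences, 2 occurred in more than 1 library, and 0 of them were members. With 1 member in replicate 1, values at 20 weeks below are those of replicate 2, the comparison of ages is 1 library against 1, and no test across genes was run.

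Pax7, Myf5 and Myog were carried by different shares of the members at the 2 ages. In replicate 2 Pax7 was detected in 19 of 21 members and Myf5 in 17, with sums of 373 and 492 CPM (UMIs scaled to a common library total). At 2 weeks Pax7 was detected in 55 of 104 members and Myf5 in 44, at 147 and 99.5 CPM. Myod1 was detected in 6 of 21 members of replicate 2, at 237 CPM, and in 79 of 104 at 2 weeks, at 309 CPM. Cdh15 was found in 10 of 21 and 68 of 104 members, at 164 and 167 CPM in replicate 2 and at 2 weeks. Myog had 0 UMIs in replicate 2 and 1390 UMIs in 35 of the 2-week members, at 1772 CPM. With each barcode thinned to 1000 UMIs, Myod1 was seen in 4 of 21 members of replicate 2 and 20 of 104 at 2 weeks, close to the same share, and Cdh15 in 3 and 22. At that depth Pax7 was seen in 6 of 21 and 16 of 104, Myf5 in 9 and 10, and Myog in 0 and 30. The single member of replicate 1 had 1 UMI each of Pax7 and Myf5 and none of the other rule genes. In the other barcodes of each library, every rule gene was detected in at most 0.503% of barcodes. These values chose the members and are given without a test.

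**Figure D1:**
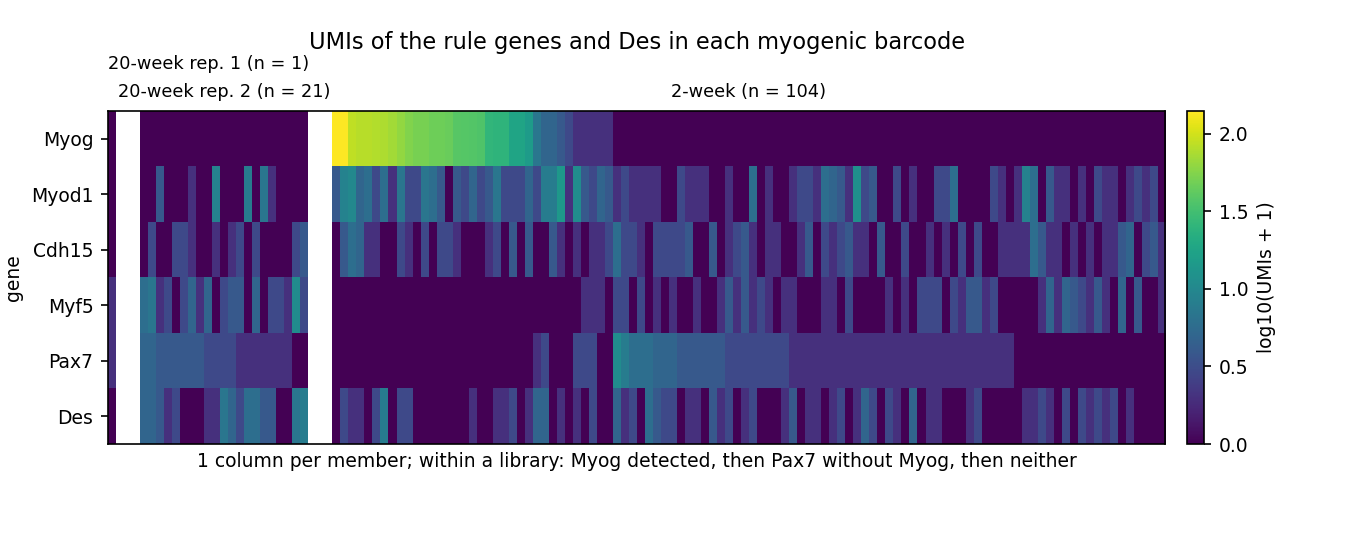
Heat map of log10(UMIs + 1) of the 5 rule genes and Des, with 1 column per member, grouped by library (20-week replicate 1, 20-week replicate 2, then 2-week). Myog fills the first 35 of 104 columns of the 2-week library and is at 0 in all 22 members of the 20-week libraries, where most columns carry Pax7 and Myf5.

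The combinations show the same split barcode by barcode. In replicate 2 the commonest were Pax7 with Myf5 (7 members) and these with Cdh15 (5 members). At 2 weeks they were Myod1, Cdh15 and Myog (17 members) and Myod1 with Myog (11 members), followed by Pax7, Myf5, Myod1 and Cdh15 (10 members) and Pax7, Myod1 and Cdh15 (10 members). Just inside the threshold, with exactly 2 rule genes, lay 1, 12 and 46 barcodes of replicate 1, replicate 2 and the 2-week library. Just outside it, with exactly 1, lay 3, 15 and 35. The barcodes just outside were mixed: 7 of the 15 in replicate 2 drew over 2% of their UMIs from muscle fibre markers, against 0 of the 12 just inside. At least 2 of 6 muscle lineage genes outside the rule (Chrdl2, Fgfr4, Msc, Megf10, Chodl and Musk) were found in 6 of the 15 and 10 of the 12. At 2 weeks they were found in 14 of the 35 just outside and 29 of the 46 just inside. At 2 weeks Col1a1, the main collagen chain of tendon, summed to 1788 CPM in the barcodes with 2 rule genes and to 13377 CPM in those with 1.

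Des, which encodes the muscle intermediate filament desmin and was not used by the rule, was present in the members but was not particular to them. It had 519 CPM in the members and 199 CPM in the other barcodes of replicate 2, with a UMI in 16 of 21 members and in 18.1% of the others. At 2 weeks it had 139 CPM in the members and 43.3 CPM in the others, with a UMI in 58 of 104 members and 11.1% of the others. The 1 member of replicate 1 had none, against 27.2 CPM in the others. The 84 barcodes of replicate 2 with over 2% of UMIs from fibre markers held 3094 CPM of Des, above the members, and 0 of them were members.

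Beyond the rule genes, some transcripts stood higher in the members than in the others, and several of them are known from satellite cells. Ranked by the mean of both libraries' log2 ratios over the other barcodes (10 CPM added), the leading gene was Nppc, the precursor of C-type natriuretic peptide. It stood at 2341 CPM in the members and 34.5 CPM in the others of replicate 2, and at 550 and 13.2 CPM at 2 weeks. Nppc had a UMI in 13 of 21 members of replicate 2 and in 51 of 104 at 2 weeks. Of its 257 UMIs in replicate 2, the highest barcodes held 93, 64 and 56, so that sum rests mostly on them. Cd82, a tetraspanin of the cell surface, stood at 328 and 11.0 CPM in members and others of replicate 2 and at 356 and 18.4 CPM at 2 weeks. Chrdl2, a chordin-like binder of bone morphogenetic proteins, had 273 CPM in the members against 0.914 in the others of replicate 2, and 85.4 against 2.24 at 2 weeks. Fgfr4, a fibroblast growth factor receptor, had 146 CPM against 1.10 in replicate 2 and 112 against 1.41 at 2 weeks. Each of these 4 genes stood above the other barcodes in both libraries, but the ranking used both ratios, so this is no separate result.

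The rest of the leading 20 were Erfe, which encodes the muscle hormone erythroferrone, the homeobox gene Prox1, Asb5, Gm13703, Gal, the adhesion receptor gene Vcam1, Pdlim4, the caveolar Cavin2, Msc, which encodes the helix-loop-helix repressor musculin, Pde1c and Chodl, besides the rule genes. Their mean log2 ratios ran from 2.92 in Chodl to 3.60 in Erfe. Gal, the neuropeptide galanin, was the least even of them, with a log2 ratio of 5.67 in replicate 2 and 0.75 at 2 weeks. Cavin2 stood at 173 CPM in the members of replicate 2, below the 449 CPM in the 33 barcodes of that library with at least 4 of 8 mural markers, which mark the contractile cells of vessel walls. At 2 weeks it stood at 366 CPM in the members and 42.2 CPM in the 889 such barcodes, of which 3 were members. The ratios use the barcodes that the rule picked, so they describe the members and were not tested.

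Markers of other cell types were low in most members, apart from 2 mural markers, Acta2 and Tagln, at 2 weeks. Of 8 endothelial markers, 8 were at 0 in the members of replicate 2 and 6 at 2 weeks. Of 7 immune markers, 6 were at 0 in each. Both kinds of cell had been sorted out of all libraries. In the other barcodes of replicate 2 and 2 weeks endothelial markers summed to only 26.1 and 7.92 CPM, and immune markers to 176 and 2.59 CPM. Fibroblast markers summed to 364 CPM in the members and 27662 CPM in the others of replicate 2, and to 4368 and 61950 CPM at 2 weeks. Tenocyte markers summed to 18.2 CPM in the members of replicate 2, with Tnmd, the tendon membrane protein tenomodulin, at 0, and to 572 CPM at 2 weeks, or 166 CPM without the 1 member that held most of them. Mural markers summed to 373 CPM in the members and 347 CPM in the others of replicate 2, and to 4487 and 10280 CPM at 2 weeks. Without the highest member of each library the members' sums were 97.8 CPM in replicate 2 and 3020 CPM at 2 weeks. The median 2-week member held 1764 CPM of these markers, against 157 CPM in the median other barcode, and most of the summed UMIs were of Acta2, an actin of smooth muscle that immature muscle cells also make, with 2609 UMIs in 100 of 104 members. Tagln, the actin-binding protein transgelin of smooth muscle, had 720 UMIs in 36 of 104 members, with 54.9% of them in 1. Of the other defining mural markers Kcnj8 was at 0, and Myh11 and Cnn1 were each detected in 2 members. Muscle fibre markers summed to 109 CPM in the members against 5105 CPM in the others of replicate 2, and to 326 against 572 CPM at 2 weeks. Over 1% of UMIs came from 3 fibrillar collagen genes in 0 of 21 members of replicate 2 and in 6 of 104 at 2 weeks, against 9.46% and 76.9% of the others. No doublet caller was run. Of the 2-week members, 1 held over 3 times its library's median UMI count, and 3 carried at least 4 of 8 mural markers.

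Within the 2-week library the members fell into barcodes with and without the differentiation factor. Myog was detected in 35 of 104 members (33.7%, exact 95% interval 24.7 to 43.6), and 5 of these also held Pax7. Pax7 without Myog was found in 50 members (48.1%, 38.2 to 58.1), and neither gene in 19. In replicate 2 Myog was found in 0 of 21 members, which allows a share of up to 14.3% if 3 counts stand for 0 and up to 16.1% by the exact interval, while 19 held Pax7 without Myog and 2 neither. These limits cover members with a UMI, not cells expressing the gene. The Myog-detected members were also the deepest at 2 weeks, with a median of 9358 UMIs, against 6731 in those with Pax7 and no Myog and 4039 in those with neither.

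Actc1, Mymk, Mymx and Tnnt2 were found in the Myog-detected barcodes and had no UMI in the 50 Pax7 barcodes of the same library, while other genes of muscle differentiation were in both. Actc1, the actin of heart and of embryonic skeletal muscle, had 527 UMIs in 25 of 35 Myog-detected members and 0 in the 50 with Pax7 and no Myog, at least 187-fold higher when 3 counts over the group stand for 0. Mymk, the fusion protein myomaker, had 134 UMIs against 0 (at least 47.6-fold), and its partner Mymx, myomixer, had 52 against 0 (at least 18.5-fold). Tnnt2, a troponin T, had 57 UMIs against 0 (at least 20.3-fold). Tnnt1, another troponin T, was in both, with 32 UMIs in 19 Myog-detected and 16 UMIs in 9 Pax7 barcodes. Cdkn1c, the cell cycle inhibitor p57, stood at 9089 CPM in the Myog-detected and 428 CPM in the Pax7 members, a 21.2-fold difference (counting interval 18.0 to 25.2), with a UMI in 34 of 35 and 39 of 50 barcodes. Rbm24, an RNA-binding regulator of muscle splicing, stood at 401 and 31.8 CPM in the same order (12.6-fold, 6.81 to 25.9). Bin1, a membrane-bending protein of muscle tubules, stood at 379 and 98.3 CPM (3.86-fold, 2.62 to 5.82). Chrna1, the alpha subunit of the muscle acetylcholine receptor, was also in both, at 392 CPM in Myog-detected and 179 CPM in Pax7 barcodes (2.18-fold, 1.60 to 3.01). The 12 genes furthest up also held Isyna1 (91 UMIs in 17 Myog-detected barcodes), Fbxl22 (52 in 12) and Actg2 (61 in 4, with 72.1% in 1), all at 0 in the Pax7 barcodes. Tpm2, also among them, stood at 1138 and 69.4 CPM (16.4-fold, 10.8 to 25.9), with 43.9% of its Myog-detected UMIs in 1 barcode.

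**Figure D2:**
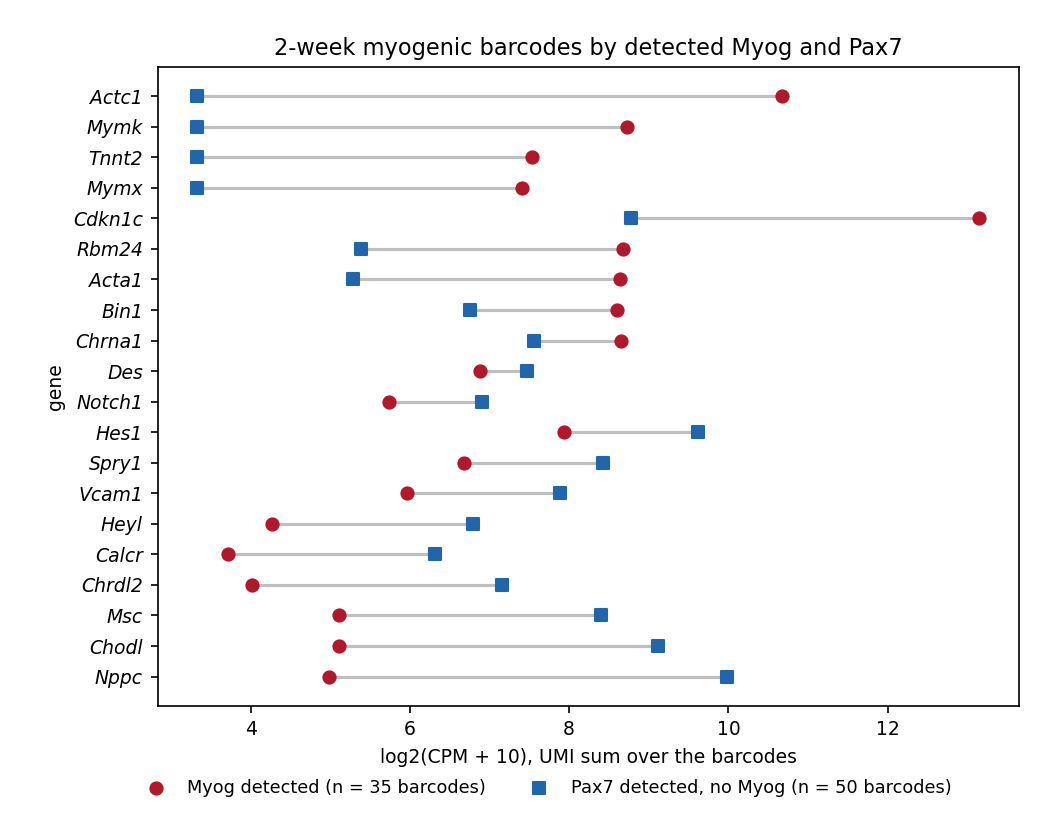
Dot plot of log2(CPM + 10), from UMIs summed over barcodes, for 20 genes in 2-week members with Myog detected (red circles, 35 barcodes) and with Pax7 and no Myog (blue squares, 50 barcodes). Actc1, Mymk, Tnnt2 and Mymx sit at the left edge, 0 CPM, in the Pax7 barcodes, and Nppc, Chodl and Msc lie furthest to the right of their Myog-detected values there.

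Nppc, Chodl and some genes of satellite cells and of Notch signalling were lower in the Myog-detected than in the Pax7 barcodes. Nppc stood at 21.6 CPM in Myog-detected and 1004 CPM in Pax7 members, 46.5-fold lower in the Myog-detected (22.3 to 117), and Chodl, chondrolectin, at 24.7 and 544 CPM (22.0-fold lower, 11.0 to 51.8). Calcr, the calcitonin receptor that helps to hold satellite cells quiescent, had 1 UMI against 24 (22.5-fold lower, 3.67 to 926). Heyl and Hes1, transcriptional repressors switched on by Notch, were 10.9-fold (3.45 to 55.6) and 3.31-fold lower (2.56 to 4.33) in the Myog-detected barcodes, Notch1 2.55-fold lower and Spry1, a feedback inhibitor of growth factor signalling, 3.60-fold lower. Gpx3, a secreted glutathione peroxidase, had 0 UMIs against 71, at least 22.2-fold lower. Others of these lists stood the other way by less than 2-fold. Megf10, a receptor of satellite cells, stood at 188 CPM in Myog-detected and 98.3 CPM in Pax7 barcodes, the Notch ligand Dll1 at 64.7 and 34.7 CPM and the repressor Hes6 at 207 and 119 CPM. The 12 genes furthest down also held Chrdl2 (21.6-fold lower), Medag (14.1-fold), Dtx4 (11.3-fold), Pdgfrl (8.26-fold) and Itih5 (6.50-fold).

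By list, the direction was split in the same way. Across 2957 genes measured in both classes, 6.32% were higher in the Myog-detected barcodes by 2-fold or more and 7.24% were lower by as much, with a median log2 ratio of 0.00 and no test. Of 13 measured genes of differentiation and fusion, 10 were higher and 1, Cdon, a co-receptor of the Hedgehog pathway, was lower, with a median of 1.85. Of 8 measured Notch pathway genes 0 were higher and 4 lower (median -0.97). Of 12 genes of quiescence and the niche 1, Cdkn1c, was higher and 6 lower (median -1.07). Of 12 identity genes outside the rule 0 were higher and 6 lower (median -0.94), among them Msc, Ncam1, Peg3 and Fgfr4. Myog, which defined the classes, was left out of the first list's count. Of 5 measured mural genes 5 were higher, but Myh11 (100 UMIs) and Cnn1 (41 UMIs) each came from 2 barcodes, with 72.0% and 70.7% of the UMIs in 1 of them. The same barcodes' part in the other genes was not tested.

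Transcripts of mitosis were found among the members at 2 weeks. At least 3 of 14 genes of mitosis were detected in 12 of 104 members (11.5%, 6.11 to 19.3) and in 3.07% of the other 2-week barcodes (2.60 to 3.59). In replicate 2 it was 0 of 21 members, with an exact upper limit of 16.1%, and 2.41% of the others. With each barcode thinned to 1000 UMIs, any of these genes was seen in 17.3% of the members and 4.24% of the others at 2 weeks, and in 0 of 21 members and 3.22% of the others in replicate 2. By class, 4 of 35 Myog-detected members, 3 of 50 with Pax7 and no Myog and 5 of 19 with neither reached 3 of 14 genes at full depth. With thinning, any of the 14 genes was seen in 11.4%, 14.0% and 36.8% of these classes in the same order. The full-depth intervals of the 3 classes overlap, which does not show that the classes are alike, and no test was run. Of 13 measured cell cycle genes, 0 were at least 2-fold higher and 3 lower in Myog-detected than in Pax7 members, namely Ccnd1, Ube2c and Mcm7.

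The comparison of ages set the 21 members of replicate 2 against the 104 members at 2 weeks, and the clearest values were transcripts close to absent in one of them. Gal stood at 1075 CPM in replicate 2 and 10.2 CPM at 2 weeks, 105-fold higher (51.8 to 250), with a UMI in 11 of 21 and 5 of 104 members. Its values per barcode ran from 0 through a median of 161 to 4265 CPM in replicate 2 and from 0 through 0 to 306 CPM at 2 weeks, so the groups overlapped at 0. Apoe, the lipid carrier apolipoprotein E, stood at 3552 and 70.1 CPM (50.7-fold, 38.1 to 68.5), with a median barcode at 2530 CPM in replicate 2 and 0 at 2 weeks. In the other barcodes Gal stood at 11.3 and 1.97 CPM and Apoe at 529 and 424 CPM in replicate 2 and at 2 weeks. Without the 6 members at 2 weeks over 1% fibrillar collagen the log2 ratio of Apoe was 6.07, against 5.47 with them. Sdc4, the heparan sulfate proteoglycan syndecan-4 that marks satellite cells, stood at 2887 CPM in replicate 2 and 176 CPM at 2 weeks (16.4-fold, 13.4 to 20.2), against 187 and 161 CPM in the other barcodes. In the other barcodes of replicate 1 Sdc4 stood at 428 CPM, a log2 ratio of 1.35 over 2 weeks, Apoe at 658 CPM and Gal at 0.555 CPM. The 1 member of replicate 1 held 10 UMIs of Sdc4, 3 of Errfi1 and 2 of Apoe among its 2540, and none of Gal or Mt1. These intervals cover counting error within 1 library per age and not the spread between animals.

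**Figure D3:**
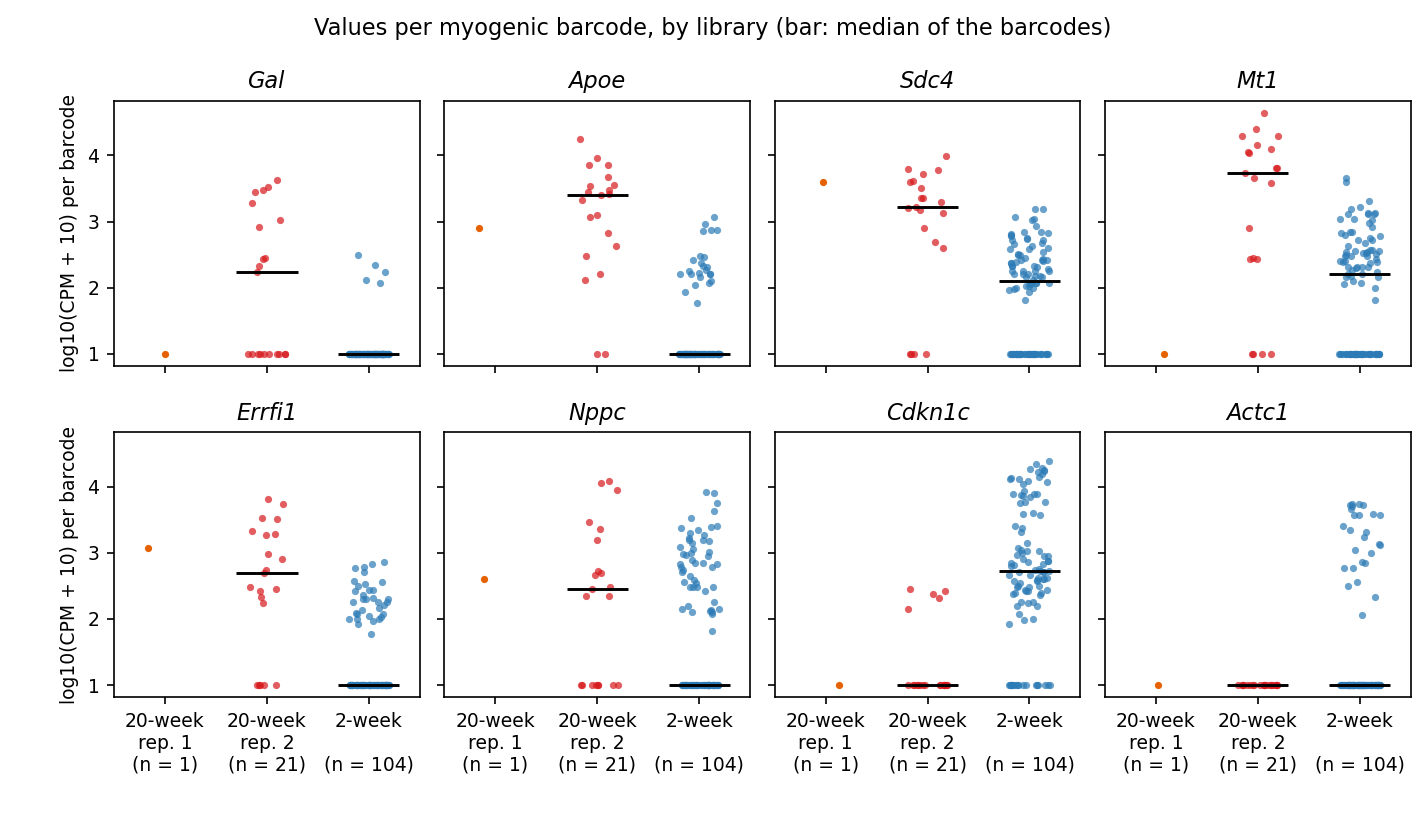
Values per member of 8 genes in log10(CPM + 10), in 20-week replicate 1 (1 barcode), 20-week replicate 2 (21 barcodes) and the 2-week library (104 barcodes), with bars at the median of the barcodes and 1 on the axis standing for 0 CPM. Apoe, Sdc4 and Mt1 have their medians higher in replicate 2, Gal and Errfi1 also do, Cdkn1c is lower there and Actc1 is at 0 in every 20-week member.

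The others of the 10 genes furthest up were of mixed kinds. Clcf1, a cytokine of the interleukin-6 family, had 52 UMIs in 14 of 21 members of replicate 2 and 3 UMIs in 3 of 104 at 2 weeks (124-fold, 40.1 to 620). Mt1, a metal-binding metallothionein, stood at 8479 CPM in replicate 2 and 362 CPM at 2 weeks (23.4-fold, 20.5 to 26.8), and in the other barcodes at 3833 and 857 CPM, with 4650 CPM in those of replicate 1. Errfi1, a feedback inhibitor of the epidermal growth factor receptor, stood at 1348 and 68.9 CPM (19.6-fold, 14.2 to 27.3), and in the others at 216 and 144 CPM, with 284 CPM in those of replicate 1. Trib1 had 373 CPM in replicate 2 and 12.8 CPM at 2 weeks, and Cxcl1 had 1011 and 52.3 CPM, both with a UMI in fewer than 9 of the 21 members. For Ccn2, Serpine2 and Srxn1, which also ranked among the 10 furthest up, 1 barcode of replicate 2 held 84.2%, 78.6% and 65.0% of the UMIs.

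The genes furthest down in replicate 2 included imprinted growth genes and genes of differentiation. Cdkn1c stood at 45.5 CPM in replicate 2 and 4014 CPM at 2 weeks, 88.1-fold lower (37.7 to 272), and in the members with Pax7 and no Myog at 52.5 and 428 CPM. Dlk1, a membrane relative of the Notch ligands active in growing muscle, had 0 UMIs in replicate 2 and 429 in 80 of 104 members at 2 weeks, at least 20.0-fold lower. Mest, an imprinted gene of early growth, had 1 UMI against 380 (53.2-fold lower, 9.49 to 2107), and Igf2, insulin-like growth factor 2, stood at 54.6 and 761 CPM (13.9-fold lower, 6.36 to 38.1). Cdkn1c, Dlk1, Mest and Igf2 were also lower in the other barcodes, with log2 ratios there of -1.20 for Cdkn1c and -2.59 for Mest. In those barcodes Dlk1 stood at 2.74 CPM in replicate 2 and 699 CPM at 2 weeks and Igf2 at 16.8 and 1183 CPM. Peg3, an imprinted zinc finger gene, had 528 CPM in the members of replicate 2 and 458 CPM at 2 weeks, but 33.8 and 310 CPM in the others. Chrna1, whose promoter is printed above, had 0 UMIs in replicate 2 and 199 in 66 of 104 members at 2 weeks (at least 9.29-fold lower). Among members with Pax7 and no Myog it had 0 and 62 UMIs. Actc1 had 0 and 528 UMIs (at least 24.6-fold lower), and was at 0 in the members with Pax7 and no Myog at both ages.

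The remaining genes furthest down were matrix and contractile genes of which 1 barcode at 2 weeks held a large part. Col1a1, a chain of type I collagen, had 1 UMI in replicate 2 and 975 UMIs in 71 of 104 members at 2 weeks, with 42.3% in 1 of them. Its partner chain Col1a2 had 0 and 819 UMIs, in 54 members at 2 weeks, with 45.7% in 1. Tnmd was detected in 14 members at 2 weeks, Tagln in 36 and Myl9, a myosin light chain, in 22, and 1 barcode held 84.7%, 54.9% and 61.8% of their UMIs. Without the 6 members over 1% fibrillar collagen, the log2 ratio was -4.17 for Col1a1, -4.44 for Col1a2 and -1.75 for Tnmd, against -6.04, -6.72 and -4.74 with them. Without the top mural-marker member of each library it was -4.45 for Tagln and -3.39 for Myl9, against -5.04 and -4.66. These genes kept their direction without those members, at a smaller size. In the other barcodes the log2 ratio was -4.54 for Col1a1 and -3.29 for Col1a2, so these falls were not particular to the members. Of 6 measured mural genes 5, Tagln among them, were lower in both the members and the others.

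Over all 3755 genes with at least 30 UMIs in both libraries together, 8.07% were higher in replicate 2 by 2-fold or more and 28.8% were lower by as much, that is 303 and 1080 genes, with no test. Of the 1080 lower genes, 177 had 0 UMIs in replicate 2, taken as 0 in this count and in those of the lists. The median log2 ratio was -0.44 in the members and 0.02 over the same genes in the other barcodes. Because the 2-week sum was the deeper one, the UMI minimum favours genes present at 2 weeks. With a minimum mean of 50 CPM in its place, 361 genes were higher and 561 lower, and with the 2-week sum thinned to the total of replicate 2 it was 145 and 218 of 846 genes. The higher genes made up 21.9% of the calls in the first count and 39.2% and 39.9% in the others. In the members with Pax7 and no Myog, 212 of the 303 were also higher and 875 of the 1080 also lower. Genes at least 2-fold higher in both members and others numbered 65, and genes lower in both 112. In the opposite direction in the 2 classes there were 4 that were higher in the members and 22 that were lower. The muscle fibre genes Acta1 and Atp2a1 were among the 22. The others held 84 barcodes with over 2% of UMIs from fibre markers in replicate 2 and 14 at 2 weeks, whose part was not tested.

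**Figure D4:**
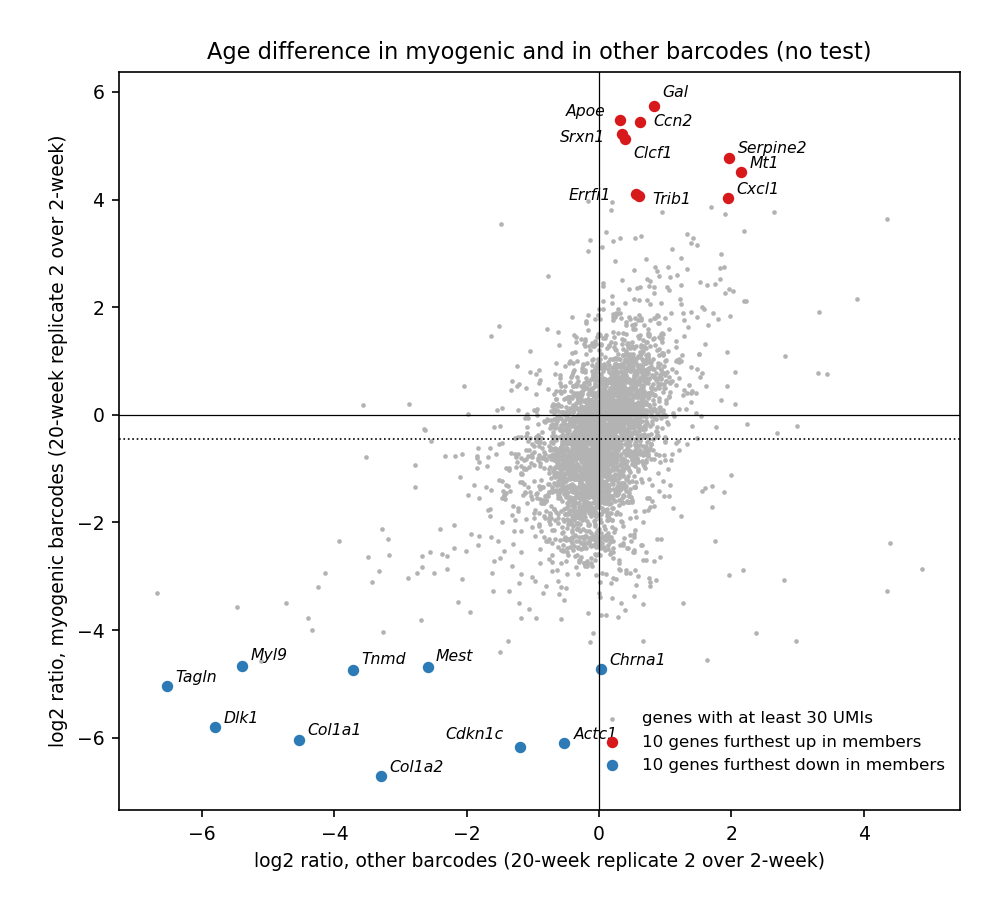
Scatter of 3755 genes with the log2 ratio of 20-week replicate 2 over 2 weeks (10 CPM added) in the other barcodes on the horizontal axis and in the myogenic barcodes on the vertical axis. The 10 genes furthest up (red) and furthest down (blue) in the members are named, the dotted line is the members' median of -0.44, and Chrna1 and Actc1 lie low on the vertical axis at horizontal values close to 0.

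Genes of satellite cell quiescence and the niche were more often higher than lower. Of 17 measured members of that list, 8 were at least 2-fold higher in replicate 2 and 2 lower, with a median log2 ratio of 0.77. Over all genes 8.07% were higher and 28.8% lower, with a median of -0.44. Besides Sdc4 and Apoe, Vcam1 stood at 510 CPM in replicate 2 and 144 CPM at 2 weeks (3.54-fold, 2.52 to 4.92), and Chrdl2 at 273 and 85.4 CPM (3.20-fold, 2.01 to 4.99). Notch3 (3.69-fold), Heyl (3.11-fold), Tenm4 (2.86-fold) and Rgs2 (3.10-fold) were the others. The lower ones were Cdkn1c and Col15a1, a basement membrane collagen (4.12-fold lower). In the members with Pax7 and no Myog, 4 were higher and 3 lower, and the median was 0.45. Over the same 3755 genes in that class, 6.87% were higher and 28.4% lower, with a median of -0.42. Of 16 identity genes outside the rule, Des (3.74-fold, 2.66 to 5.19) and Chrdl2 were higher and Megf10 and Pitx3 lower, with a median of -0.02. Pitx3 had 1 UMI in replicate 2. Des was higher in the other barcodes too, with a log2 ratio of 1.97 there and 1.83 in the members.

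The Notch pathway was divided. Of 10 measured genes 3 were higher, the receptors Notch2 (2.68-fold, 1.47 to 4.69) and Notch3 and the target Heyl. Notch3 and Heyl were also counted in the quiescence list above, so the 2 counts are not separate. The 2 counted as lower were the ligand Dll1 and Hes6. Dll1 had 0 UMIs in replicate 2 and 40 at 2 weeks. It passed 2-fold only with its 0 taken as 0, and was at least 1.87-fold lower with 3 counts standing for 0. Hes6 had 1 and 121 UMIs (16.9-fold lower, 2.98 to 675). The median log2 ratio of the list was 0.60, against -0.44 over all genes, of which 8.07% were higher and 28.8% lower. In the members with Pax7 and no Myog 0 of the Notch genes were higher and 2 lower, against 6.87% and 28.4% of all genes.

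Cell cycle genes were lower in replicate 2, and differentiation genes were lower over all members but close to the level of all genes within the members with Pax7 and no Myog. Of 13 measured genes of differentiation and fusion, 10 were lower, against 28.8% of all genes. The cell cycle inhibitor Cdkn1a (2.98-fold, 2.05 to 4.25) was the 1 that was higher, against 8.07% of all genes. The list's median was -3.05, or -1.41 with genes at 0 taken at their bound, and -0.38 among members with Pax7 and no Myog, where 5 of the 13 were lower and 1 higher, against -0.42 and 28.4% lower over all genes of that class. Of 16 cell cycle genes 0 were higher and 14 lower, with a median of -2.40, or -1.63 at the bound, and 8 of them had 0 UMIs in replicate 2. Among members with Pax7 and no Myog, 13 were lower and the median was -2.31, while over the other barcodes it was 0.18. No bound was taken in that class, where few 2-week barcodes held UMIs of mitosis genes. Of its 50 barcodes at 2 weeks Mki67 was in 4, with 82.6% of 23 UMIs in 1. Top2a was in 5, with 71.4% of 21 UMIs in 1, and both were at 0 in that class of replicate 2. Stmn1, a microtubule regulator of dividing cells, stood at 36.4 CPM in replicate 2 and 511 CPM at 2 weeks (14.0-fold lower, 5.44 to 51.8), against 136 and 106 CPM in the others. Ccnd1, cyclin D1, stood at 54.6 and 254 CPM (4.64-fold lower, 2.10 to 12.8). In the members with Pax7 and no Myog it stood at 63.0 and 367 CPM, with a UMI in 43 of the 50 at 2 weeks.

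Genes of oxidative phosphorylation were lower in the members, with ratios closer to 0 in the other barcodes. Of 26 nuclear genes 0 were at least 2-fold higher and 18 lower in replicate 2, with a median of -1.27 in the members, -1.12 in those with Pax7 and no Myog, and -0.17 in the others. All genes in the members had a median of -0.44, with 8.07% higher and 28.8% lower. Ndufa4, a cytochrome oxidase subunit, stood at 209 CPM in replicate 2 and 843 CPM at 2 weeks (4.02-fold lower, 2.66 to 6.39), and Atp5b, the catalytic subunit of ATP synthase, at 246 and 873 CPM (3.55-fold lower, 2.42 to 5.43). In the others Atp5b stood at 356 and 340 CPM. The median share of mitochondrial UMIs, which come from the mitochondrion's own genome, was 2.46% in the members of replicate 2 and 2.25% at 2 weeks.

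Immediate early and heat shock genes, which tissue digestion can raise, were higher in the members of replicate 2. Of 26 measured genes 15 were higher and 0 lower, with a median of 1.23, or 1.25 among members with Pax7 and no Myog, against 0.56 in the other barcodes. The shares over all genes in the members were 8.07% higher and 28.8% lower. Klf4 stood at 783 CPM in replicate 2 and 76.5 CPM at 2 weeks (10.2-fold, 7.28 to 14.5), Myc at 419 and 61.2 CPM (6.85-fold, 4.47 to 10.5), and Fosb at 1002 and 147 CPM (6.83-fold, 5.21 to 8.95). For Fos the sum and the median barcode went opposite ways. It stood at 3297 and 1302 CPM, but was detected in 11 of 21 and 87 of 104 members, and the median barcode held 161 CPM in replicate 2 and 770 CPM at 2 weeks. The part of handling in the other genes that were higher was not tested.

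Genes of complement, interferon response and antigen presentation were higher in 6 of 8 measured cases and lower in 0, with a median of 1.97 in the members and 1.45 in the others. Among all genes in the members 8.07% were higher and 28.8% lower. H2-K1, a class I histocompatibility chain, stood at 264 CPM in replicate 2 and 30.6 CPM at 2 weeks (8.63-fold, 4.85 to 15.5), and Ifitm3, an interferon-induced membrane protein, at 1403 and 311 CPM (4.51-fold, 3.66 to 5.54). H2-K1, H2-D1 and H2-Q4 are near-identical genes whose reads the counting could have split. Of 21 antioxidant and redox genes 5 were higher and 6 lower, the latter close to the 28.8% over all genes, with a median of -0.01. Gpx3 stood at 1403 and 103 CPM (13.6-fold, 10.3 to 18.0) in the members and at 609 and 20.2 CPM in the others, and Mt2 at 3051 and 214 CPM (14.2-fold, 11.8 to 17.2). The lower ones included Prdx2, a peroxiredoxin (3.51-fold lower, 2.27 to 5.71).

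Imprinted growth genes were mostly lower in both the members and the others, while matrix genes differed by gene. Over the same 3755 genes 8.07% were higher and 28.8% lower in the members, and 3.89% were higher and 4.9% lower in the others. Of 15 imprinted genes 9 were lower in the members (median -2.22, or -1.73 at the bound) and 10 in the others (median -1.93), 8 of them in both, and 0 were higher. Of 21 genes of matrix and adhesion in the niche 9 were lower and 0 higher in the members (median -0.74), and 6 were lower and 1 higher in the others (median -0.65), with 4 lower in both. Of 16 genes of fibrillar collagen and secreted matrix 12 were lower and 0 higher in the members (median -2.41, or -1.76 at the bound), and 10 were lower and 1 higher in the others (median -1.54), with 8 lower in both. That 1 was Dcn, the proteoglycan decorin, at 209 CPM in replicate 2 and 539 CPM at 2 weeks in the members (2.57-fold lower, 1.69 to 4.11), and at 19539 and 5975 CPM in the others. Fn1, fibronectin, stood at 18.2 and 108 CPM in the members (5.95-fold lower, 1.60 to 49.9) and at 1182 and 920.0 CPM in the others. Col3a1 stood at 146 CPM in replicate 2 and 1265 CPM at 2 weeks in the members (8.68-fold lower, 5.32 to 15.2), and at 1308 and 9710 CPM in the others. Of 8 measured fibroblast markers 1 was higher and 7 lower. Among the lower ones, Dcn, Lum, Col1a1, Col1a2 and Col3a1 are also in the list of fibrillar collagen and secreted matrix, so this count is not separate from it. Of 17 growth factor receptor and signalling genes 3 were higher and 4 lower (median -0.32), the latter a smaller share than the 28.8% over all genes. Fgfr1 was among the first, at 437 CPM in replicate 2 and 173 CPM at 2 weeks (2.52-fold, 1.77 to 3.53), and Igf1 among the second, at 18.2 and 261 CPM (14.3-fold lower, 3.92 to 119).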

How the data were processed

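Single cells of mouse patellar tendon were profiled with Chromium Single Cell 3' v3.1 chemistry, per the labels' protocols. The deposited values are raw UMI counts in a matrix of genes by barcodes. Per the submitters' processing notes, the authors used Cell Ranger 6.1.2 and mm10. The annotation and counting settings are not given in the sources used here. The 3 libraries held 715 barcodes and 1886785 UMIs (20-week replicate 1), 1169 and 5849867 (replicate 2) and 5654 and 35556626 (2-week).

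Members were found by the rule on 5 genes, and counts were summed per library over members and over the other barcodes and scaled to CPM. Log2 ratios have 10 CPM added. A gene counted as higher or lower when this ratio reached 2-fold, with 0 UMIs taken as 0 CPM and no test. Folds are ratios of CPM without that addition, with exact 95% intervals from the UMI counts, and 3 counts over the group stand for 0. These cover counting error only. The step was tested on simulated data. Tools were Python 3.11.15, numpy 2.4.6, scipy 1.17.1, pandas 2.3.3 and matplotlib 3.10.9. The gene test planned across libraries, with its test of the difference between members and others, needed at least 5 members per library and was not run, since 20-week replicate 1 held 1.

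Named genes were the 20 with the highest mean log2 ratio over the other barcodes (at least 20 CPM in the mean and 20 UMIs), the 10 furthest up and down between ages (at least 30 UMIs; by replicate 2 alone, since replicate 1 held 1 member), the 12 furthest in each direction between Myog and Pax7 classes, and called or high members of the lists. Ribosomal, mitochondrial, haemoglobin and transgene features were left out of the rankings. The members and lists were chosen with earlier results of these data known. Promoters are RefSeq's on GRCm38.p6.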

Additional observations from a re-analysis of the deposited data

Results flagged for a closer look

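Signal from added transgene sequences, outside the gene comparisons, was found in members although all mice were labelled WT. The tdTomato sequence had 35 UMIs in 6 of 21 members of 20-week replicate 2 (28.6%), against 25.4% of the other barcodes, and 50 UMIs in 36 of 104 members at 2 weeks (34.6%), against 15.1% of the others. The EGFP sequence had 11 UMIs in 6 of 104 members at 2 weeks (5.77%), against 18.0% of the others, and 0 UMIs in the members of both 20-week libraries. There is no library without a transgene sequence in the feature list to set these against. Where the sequences came from was not tested.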

How the results depend on the processing

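No paired analysis was possible because the 2-week group held 1 library and no test was run. With a stricter barcode filter (1000 genes, 2000 UMIs, 5% mitochondrial) or thinning to 1000 UMIs, or with at least 3 of 5 rule genes, the share in 20-week replicate 1 was 0%. With at least 3 rule genes it was 0.887% in replicate 2 and 1.17% at 2 weeks, and with thinning 0.591% and 0.524%. The strict filter and an added rule of at least 3 of 9 genes left these shares within their intervals. The counts of genes higher and lower in replicate 2 were 303 and 1080. They came to 943 and 2419 of 13164 genes with no minimum beyond 1 UMI, 145 and 218 of 846 with the 2-week sum thinned to the total of replicate 2, and 169 and 534 of 1976 in members with Pax7 and no Myog. With at least 3 rule genes 191 of 2398 were higher, and with a mean of at least 50 CPM 561 of 2524 were lower. All these settings change how many genes are counted. Median-of-ratios size factors, leaving out members over 1% fibrillar collagen and leaving out the top mural-marker member gave counts within 1.5 times. The Pax7 class, the 50 CPM minimum, the top mural-marker member and the 9-gene rule were chosen after seeing the data. The 20 genes furthest up or down were picked for the largest ratios in these same barcodes, so a change of sign was unlikely from the start. Over 6 settings their log2 ratios kept their sign in 119 of 120 values. The other was Actc1, at 0.00 among members with Pax7 and no Myog, where it had no UMI at either age. In that class the ratio was -2.81 for Cdkn1c, -2.63 for Tagln, -2.25 for Myl9 and -1.73 for Tnmd, against -6.18, -5.04, -4.66 and -4.74 as reported. With at least 3 rule genes it was 1.65 for Serpine2, against 4.78, and -1.89 for Tnmd. For the 13 genes with UMIs in both libraries, 20 values lay outside the counting interval of the reported value and 58 within it, and the other 7 genes have no such interval. Leaving out 20-week replicate 1 is the comparison as reported. DESeq2, TMM, the test of the difference between members and others, and leaving out replicate 2 were not run, since replicate 1 held 1 member. Depth limits the 20-week values: 3 counts over the members of replicate 2 equal 27.3 CPM, against 3.83 CPM at 2 weeks.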

Other observations

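Some genes differed between ages in the members in the direction opposite to, or without, a difference in the other barcodes, and were chosen after their values were seen. Ucp2, a mitochondrial carrier, had 0 UMIs in the members of replicate 2 and 176 UMIs in 73 of 104 members at 2 weeks, at least 8.21-fold lower, while the other barcodes held 112 CPM in replicate 2 and 29.5 CPM at 2 weeks. Chchd10, a mitochondrial protein, had 0 and 137 UMIs in the members, and 159 and 11.5 CPM in the others. The others included 84 barcodes with over 2% of UMIs from muscle fibre markers in replicate 2 and 14 at 2 weeks. The part of those barcodes in the values of the others was not tested. Tnfrsf12a, the receptor of the cytokine TWEAK, stood at 610 CPM in the members of replicate 2 and 56.1 CPM at 2 weeks (10.9-fold, 7.33 to 16.3), against 51.2 and 42.8 CPM in the others. Odc1, the first enzyme of polyamine synthesis, stood at 984 and 278 CPM in the members (3.54-fold, 2.78 to 4.48) and at 70.9 and 74.3 CPM in the others. These differences between members and others were not tested.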
